A study of Mus musculus with 6 samples.

Results

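Expression in the mouse submandibular gland 24 h after 5 Gy of ionizing radiation was compared with that of unirradiated gland, gene by gene. Of 24394 genes with a symbol, 11424 could be compared: they had at least 0.2 FPKM in each of the 4 control and 24 h libraries and a mean of at least 1 FPKM over those 4. FPKM is the number of sequenced fragments per kilobase of exon for a fixed total of mapped fragments, so levels can be set beside each other between genes. All glands came from wild-type mice of the C57BL/6 strain, the age and sex of which the labels do not give. The control group (T0) received no radiation, and the other groups were sampled 6 h or 24 h after a dose of 5 Gy. Each of the 3 groups had 2 libraries of total RNA, and the 6 h libraries entered the test only through the estimate of the spread. Their levels are also given for a few genes and lists. Whether each library stems from its own animal is not stated in the labels, so the p-values rest on the spread among these samples, which may be technical.

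The submandibular gland makes saliva in acini, whose cells secrete water, salts and proteins, and modifies it in ducts. In the mouse, the granular convoluted tubules of the duct system also store growth factors and kallikrein proteases. Ionizing radiation breaks DNA and activates the transcription factor p53, which turns on genes of cell cycle arrest, death and repair. Interferons, made in response to viruses and to nucleic acids in the cytosol, turn on antiviral and antigen presentation genes through STAT and IRF factors.

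The 4 libraries did not all have the same form of values. Among 5269 genes of low level, 99.7% had control and 6 h values that were multiples of a single read (within 0.001 read), which puts the control libraries near 12300000 and 11800000 reads. At 24 h 36.6% of 6038 genes of low level had such values by the same test. That test used only the 2 libraries at 24 h, against 4 of control and 6 h, which makes a match easier to reach. Values at 24 h were all written with at most 6 digits. Their depth is therefore unknown, and they came from another quantification route. The route and the time after irradiation cannot be told apart in the comparison of 24 h with control. Spt1 shows it most plainly: this secreted product held 25.8 and 25.7% of all FPKM in the control libraries and was listed at 0 in both 24 h libraries. The secretoglobin gene Scgb1b27 was listed at 0 in 24 h replicate 1 and held 31.4% of all FPKM in 24 h replicate 2. FPKM summed to 879169.6 and 886232.8 in control and to 677320.3 and 1203217.8 at 24 h. Values were therefore scaled with median-of-ratios factors computed on the compared genes (0.920 and 0.912 for control, 1.101 and 1.081 for 24 h), and all levels that follow are scaled FPKM. Genes that define the gland were present in all 4 libraries, among them Pip and Aqp5 of acini and Egf and Klk1 of tubules.

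Markers of neighbouring tissue varied between libraries of the same group. The summed level of 7 sublingual gland genes was 10.5 and 42541 in control and 299.7 and 23248 at 24 h, in the order of replicates 1 and 2. For 7 parotid gland genes it was 28293 and 53002 in control and 33528 and 88454 at 24 h. For 11 adipocyte genes it was 39.8 and 744 against 450 and 242, and the groups overlapped for these 3 lists. The 10 epidermal keratinocyte genes stood at 2.71 and 4.15 in control and at 45.1 and 285 at 24 h, above both control libraries. The 12 skeletal muscle genes stood at 5.35 and 8.43 in control and at 17.9 and 24.1 at 24 h, and of the 7 that passed the filter 4 were called higher (1 without control replicate 1, 1 without 24 h replicate 2), with a median log2 fold change of 0.96. No marker of these 5 lists was at 0 in all 4 libraries. The part of neighbouring tissue in the results that follow was not tested.

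Genes of the p53 response, interferon-stimulated genes, macrophage markers and several clock genes were higher, while the growth factor gene Egf, most kallikrein genes and part of the endoplasmic reticulum chaperone genes were lower. With limma, 1152 genes passed as higher and 785 as lower (adjusted p under 0.05), which is 10.1% and 6.87% of the 11424 genes. Of these, 390 were higher and 178 lower by at least 2-fold on the log2(scaled FPKM + 1) scale, against 203 and 73 with a pseudocount of 5 and 475 and 303 without the minimum per library. The unadjusted p was under 0.05 for 3742 genes. The median log2 fold change was 0.00 with the scaling used and 0.20 without it. Without scaling the split was 2506 higher and 384 lower, and with quantile normalization it was 994 and 857. Leaving out control replicate 1 gave 668 higher and 398 lower, leaving out 24 h replicate 1 gave 654 and 313, and leaving out 24 h replicate 2 gave 565 and 290.

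**Figure D1:**
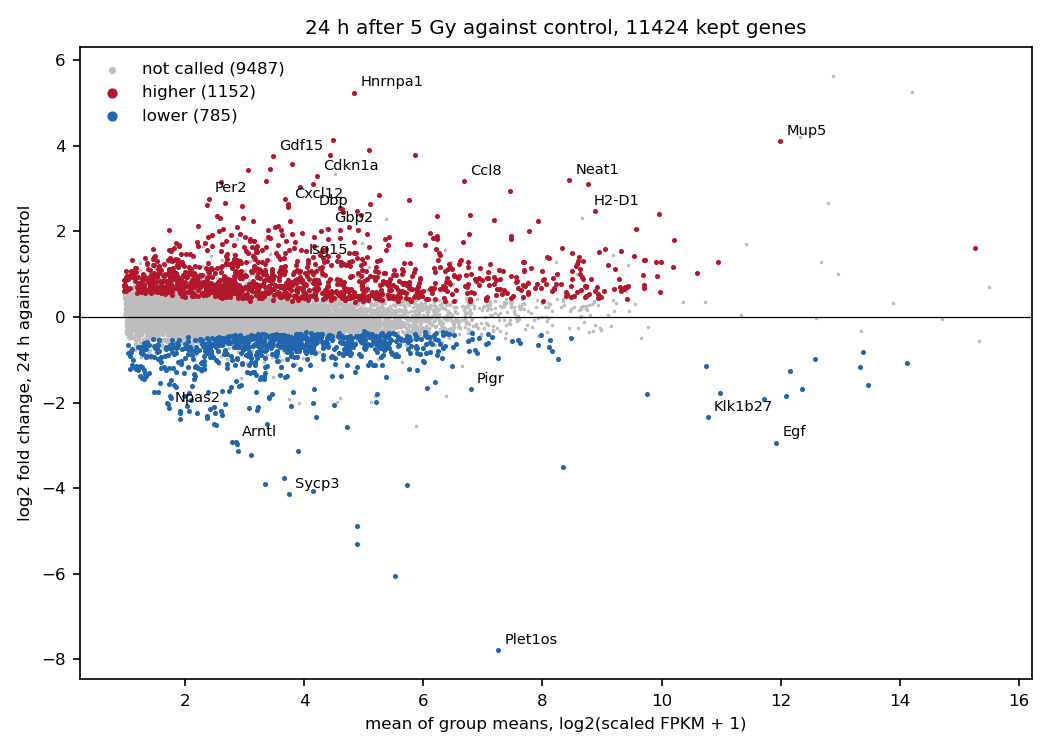
Log2 fold change of 24 h against control (vertical axis) against mean level (horizontal axis, log2 of scaled FPKM + 1) for the 11424 genes compared. Each point is a gene, red for the 1152 called higher and blue for the 785 called lower by limma, and Hnrnpa1 and Plet1os lie at the upper and lower ends of the called genes.

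Targets of p53 were among the genes with the highest fold changes. Of 49 listed targets 42 passed the filter on low values, and 23 of them were higher, 2 lower and 17 not called, with a median log2 fold change of 0.75. Gdf15, a secreted stress cytokine, was at 0.487 and 0.598 in the control libraries and at 19.4 and 20.2 at 24 h. Its 24 h libraries lay close together and 36.5-fold above control on average, a log2 fold change of 3.76 ± 0.14 (SE; adjusted p = 3.39e-05). Cdkn1a, the gene of the p21 inhibitor of cyclin-dependent kinases, stood at 2.56 and 2.33 in control and at 32.3 and 33.5 at 24 h. The groups did not overlap and the log2 fold change was 3.30 ± 0.10 (adjusted p = 2.04e-05). Both 24 h libraries lay above both control libraries in 30.8% of all 11424 genes, and below them in 30.7%. In GRCm38, Cdkn1a is annotated at chromosome 17, 29090976 to 29100727, on the + strand, and Gdf15 at chromosome 8, 70629393 to 70632456.

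The other p53 targets that rose served several functions. Ccng1, a cyclin of the damage response, was at 43.9 and 44.6 in control and at 168 and 174 at 24 h, and rose by 1.93 ± 0.09 on the log2 scale (adjusted p = 6.04e-05). Ephx1, an epoxide hydrolase of detoxification, stood at 52.3 and 46.5 against 243 and 237, a rise of 2.26 ± 0.10. Among genes of cell death, Bax, a pore-forming member of the BCL2 family, was at 19.7 and 14.6 in control and at 62.5 and 62.6 at 24 h (1.82 ± 0.15, adjusted p = 0.000612). Eda2r, a receptor of the TNF receptor family, rose by 2.37 ± 0.13 from under 1 in both control libraries. The apoptosis-enhancing nuclease gene Aen rose by 2.11 ± 0.14, and Phlda3, an inhibitor of the kinase Akt, by 1.75 ± 0.10. Sesn2, a stress-induced regulator of mTOR signalling, rose by 1.65 ± 0.15 and the heparan sulfatase gene Sulf2 by 1.36 ± 0.11.

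Not all targets moved together. Mdm2, the ubiquitin ligase that degrades p53, was at 18.7 and 17.9 in control and at 22.7 and 20.03 at 24 h, and did not pass (log2 fold change 0.21 ± 0.10, adjusted p = 0.201). Its relative Mdm4, also an inhibitor of p53, rose by 1.17 ± 0.13 (adjusted p = 0.0018). The death genes Bbc3, Fas and Pmaip1 did not pass, at 0.59, 0.46 and 0.32 on the log2 scale (adjusted p = 0.0765, 0.141 and 0.436). Gadd45a, a growth arrest gene, fell from 60.01 and 36.7 to 24.8 and 17.6 (-1.13 ± 0.24, adjusted p = 0.0233), but its adjusted p was 0.0678 without control replicate 1 and 0.110 without 24 h replicate 2. The other member called lower, the nucleotide excision repair gene Ddb2, had an adjusted p of 0.0493, and of 0.172 without control replicate 1, 0.165 without 24 h replicate 1 and 0.185 without 24 h replicate 2. Of the 36 listed targets that are long and share little sequence with other genes (under 10% of 31-base runs, under 20% of exon bases), 18 rose and 1 fell.

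Of 42 listed genes of damage signalling and repair 32 passed the filter, and 1 rose and 1 fell (median log2 fold change -0.10, and 0.07 without scaling). By comparison, 10.1% of all compared genes were higher and 6.87% lower. Rnf8, a ubiquitin ligase recruited to breaks, was at 1.44 and 1.07 in control and at 5.42 and 5.03 at 24 h (1.47 ± 0.15, adjusted p = 0.0014). Apex1, a base excision endonuclease, was at 9.77 and 11.5 against 4.53 and 4.08 (-1.13 ± 0.14, adjusted p = 0.00278), and 61.7% of its exon bases overlap those of other genes. Of 44 replication genes 32 passed the filter, 0 rose and 2 fell, namely Mcm7 and Gins2 (adjusted p = 0.0309 and 0.0263), neither of which passed when any single control or 24 h library was left out (up to 0.133 and 0.120, without 24 h replicate 1). Pcna, the sliding clamp of DNA polymerases, was at 31.9 and 31.5 in control and at 29.1 and 33.9 at 24 h. Of 33 genes of G2/M and mitosis only 4 passed the filter and none of those 4 was called.

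Interferon-stimulated genes made up a large group that was higher at 24 h. Of 54 listed antiviral genes 53 passed the filter, with 28 higher, 1 lower and a median log2 fold change of 0.79. The list had 16 members higher without control replicate 1 and 10 without 24 h replicate 2. Of the 35 members that are long and share little sequence, 13 rose and 1 fell, with a median of 0.55. Isg15, a ubiquitin-like protein that is joined to other proteins, was at 6.17 and 4.54 in control and at 19.8 and 27.9 at 24 h (1.96 ± 0.27, adjusted p = 0.00495). Ifit3, which binds viral RNA together with its relatives, was at 3.97 and 5.61 against 19.5 and 22.3 (1.93 ± 0.23), although 62% of its 31-base runs occur in other genes. Bst2, which tethers budding virus particles to the cell, shares none with other genes but is short, with 903 bases of exon. It stood at 24.5 and 23.4 against 76.9 and 83.9 (1.71 ± 0.13, adjusted p = 0.000463). Zbp1, a sensor of Z-form nucleic acids, was at 1.22 and 3.56 against 16.3 and 26.3, a rise of 2.77 ± 0.35 on the log2 scale. Groups of these 4 genes did not overlap, which held in the same direction for 30.8% of all 11424 genes.

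Regulators within the interferon list moved unevenly. Irf7, an amplifier of the type I interferon response, rose from 14.6 and 15.2 to 34.0 and 43.7 (1.31 ± 0.17, adjusted p = 0.00341). Stat2 and Irf9, which act downstream of type I interferon, did not pass (0.27 and -0.07). The RNA sensor genes Ddx58 and Ifih1 had log2 fold changes of 0.55 and 0.28, of which the first was called (adjusted p = 0.0206, but 0.0807 without control replicate 1, 0.118 without 24 h replicate 1 and 0.0873 without 24 h replicate 2). Sp100, a nuclear body component, was the 1 member called lower (-0.74).

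The interferon-induced GTPases, which attack the vacuoles of intracellular microbes, were higher almost throughout. Of 21 listed genes 16 passed the filter, 14 rose and 0 fell, and the 2 not called (Gm4951 and Gbp6, named after their values were seen) had positive log2 fold changes. The median was 1.61 and no member lay below 0.53. Gbp2, a guanylate-binding protein, was at 6.13 and 8.23 in control and at 35.9 and 30.4 at 24 h, 4.61-fold higher on average (2.07 ± 0.16, adjusted p = 0.000511). Iigp1, an immunity-related GTPase, was at 6.35 and 7.18 against 32.3 and 27.9 (1.9995 ± 0.13, adjusted p = 0.000249). Gbp3 was at 3.53 and 3.43 against 13.03 and 13.07 (1.65 ± 0.13). Of the 16 genes, 10 share at least 10% of their 31-base runs with other genes, and all 6 that share less were called higher. Between 14 and 15 members were called higher when a control or 24 h library was left out in turn.

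The promoters of 3 of these genes carry the recognition motif of interferon-activated complexes, the interferon-stimulated response element, here searched on both strands as GAAA and GAAA with NN between them. They are shown because these are the called members of the interferon lists with the highest fold changes whose promoter window holds the motif. The windows are the 250 bases before the start site, from RefSeq, build GRCm38.p6, written 5' to 3' on the strand of the gene, with motif matches in capitals.
Gbp2 (chr3:142620413-142620662, + strand): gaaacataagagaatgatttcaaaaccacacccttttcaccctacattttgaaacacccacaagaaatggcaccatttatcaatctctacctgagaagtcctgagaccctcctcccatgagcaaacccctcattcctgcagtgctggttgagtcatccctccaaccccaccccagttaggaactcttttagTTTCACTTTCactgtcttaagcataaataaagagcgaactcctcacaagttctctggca
Isg15 (chr4:156200819-156201068, - strand): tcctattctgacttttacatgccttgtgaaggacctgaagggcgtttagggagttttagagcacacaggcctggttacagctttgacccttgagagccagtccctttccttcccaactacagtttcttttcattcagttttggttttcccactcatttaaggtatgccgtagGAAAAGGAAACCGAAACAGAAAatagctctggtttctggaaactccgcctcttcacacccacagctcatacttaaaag
Ifit3 (chr19:34583279-34583528, + strand): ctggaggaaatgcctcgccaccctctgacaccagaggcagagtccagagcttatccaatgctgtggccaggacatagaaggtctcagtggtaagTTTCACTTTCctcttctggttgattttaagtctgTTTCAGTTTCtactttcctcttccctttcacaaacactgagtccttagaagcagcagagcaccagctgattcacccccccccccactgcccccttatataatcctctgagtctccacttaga
The Gbp2 window holds 1 match, read here on the opposite strand, that begins 59 bases before the start site. The Isg15 window holds 3 matches that overlap each other in 1 run, and the Ifit3 window holds 2 separate matches on the opposite strand.

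Over windows of 300 bases (the 250 above and the 50 after the start site), 1079 of all 27025 genes with a window (4.0%) hold this motif in at least 1 window, and the shares that follow are also of genes. Of the 42 interferon-list genes called higher 32 had a window, and 22 of these genes (68.8%) held the motif. Of the 27 members that passed the filter and were not called higher 16 had a window, and 6 (37.5%) held it. TTCNNNGAA, the gamma-activated site, was in 9.6% of all genes and in 9 of the 32 called genes (28.1%). It was in a similar share, 4 of 16, of the members with a window that were not called higher. The NF-kB motif was in 5.1% of all genes and in 4 of 10 called genes of the MHC class I list with a window (40.0%). The p53 motif, a single decamer, was in 9.6% of all genes, in 7 of 19 called p53 targets with a window (36.8%) and in 5 of 14 targets not called higher (35.7%). These matches describe letters in a window, the lists were chosen for known regulation, and a match does not show that a factor was bound.

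Genes of antigen presentation by MHC class I were higher. Of 23 listed genes 20 passed the filter, 13 rose, 1 fell and the median was 0.76. The member that fell was the chaperone gene Calr (adjusted p = 0.0317), which did not pass when any single control or 24 h library was left out (0.0535 to 0.145). B2m, the light chain of all class I molecules, stood at 1301 and 1001 in control and at 3018 and 2583 at 24 h (1.29 ± 0.16, adjusted p = 0.00341, and 0.0506 with quantile normalization). The immunoproteasome subunit genes Psmb8, Psmb9 and Psmb10, whose products cut peptides for class I, rose by 1.57 ± 0.20, 1.60 ± 0.21 and 1.06 ± 0.13. Tap1, a subunit of the pump that brings peptides to class I molecules, was at 11.4 and 10.2 against 21.9 and 23.5 (1.01 ± 0.11, adjusted p = 0.00158). The class I heavy chain gene H2-D1 was at 93.8 and 83.2 against 888 and 666 (3.11 ± 0.16), and 27% of its 31-base runs occur in other genes. H2-T23, another heavy chain gene, was at 81.3 and 81.8 in control and at 2.01 and 65.3 at 24 h, so its 24 h libraries disagreed (adjusted p = 0.196).

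MHC class II genes fell into groups that did not move alike. Of 13 listed genes 12 passed the filter, 5 rose and 0 fell. Cd74, the invariant chain, was at 218 and 240 in control and at 601 and 451 at 24 h (1.18 ± 0.18, adjusted p = 0.00637). H2-DMa, a peptide exchange chain, and Ctss, a protease that trims the invariant chain, rose by 1.05 ± 0.15 and 1.17 ± 0.13. The chains that present peptide did not pass: H2-Ab1 was at 68.6 and 70.6 in control and at 49.2 and 101.5 at 24 h. H2-Aa was at 95.1 and 107 against 5.65 and 120, and H2-Eb1 at 43.0 and 44.3 against 1.66 and 46.3. The low value of H2-Aa, H2-Eb1 and H2-T23 was in 24 h replicate 1 each time, and in 24 h replicate 2 the first 2 lay above both control libraries.

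**Figure D2:**
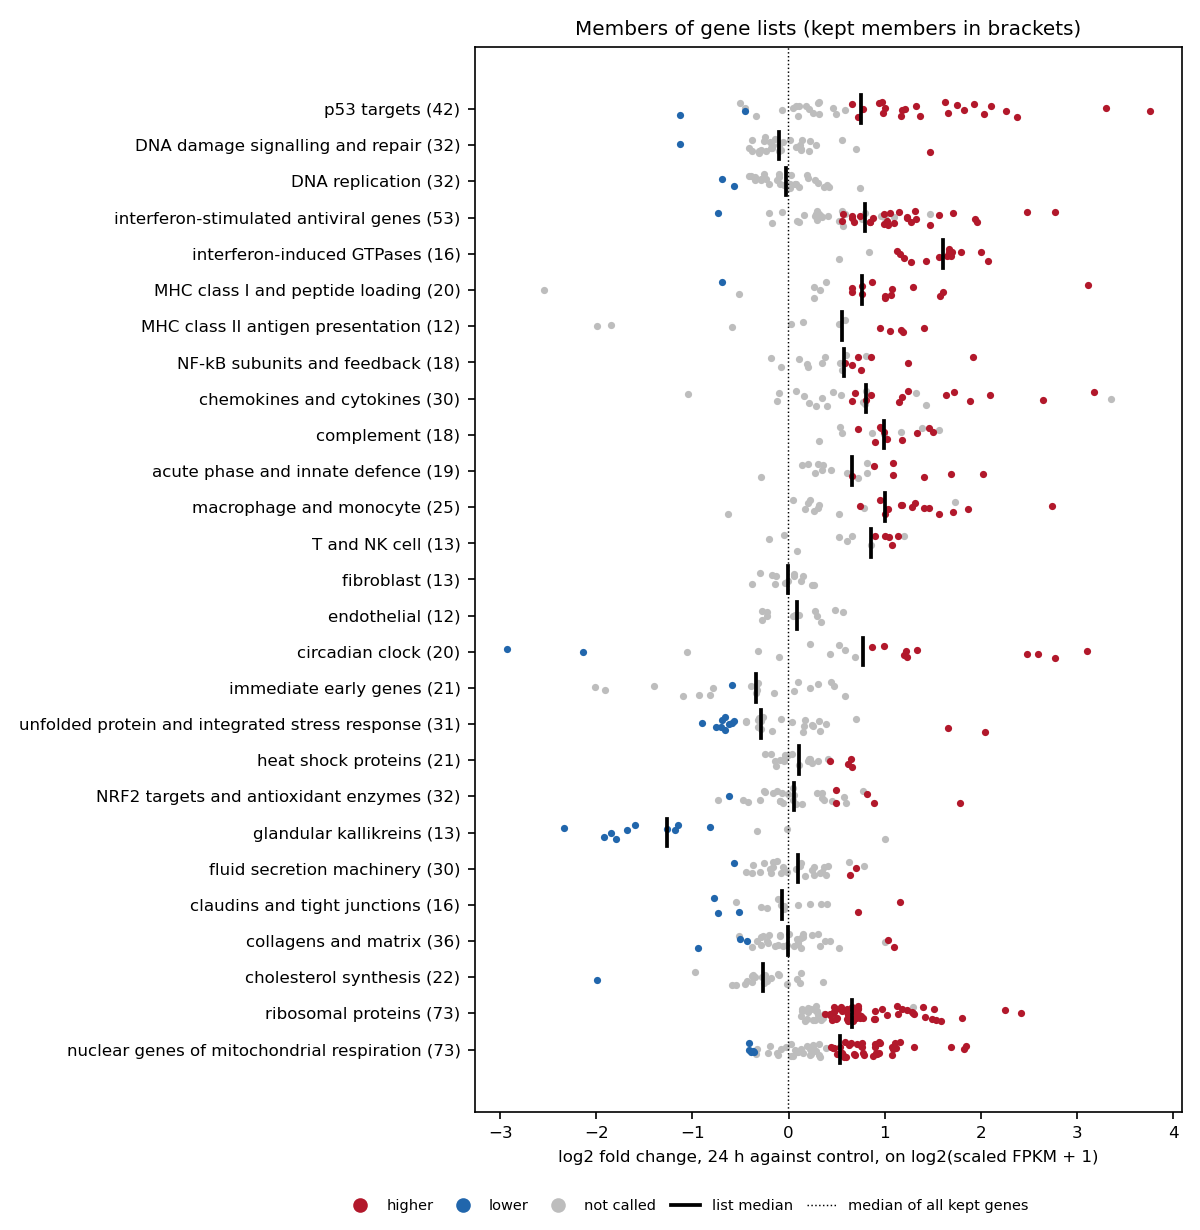
Log2 fold change of each compared member (points) of 27 gene lists, with the list median as a black bar and the median of all 11424 genes as a dotted line. Red and blue points were called higher and lower by limma, and the interferon-induced GTPases lie wholly to the right of the dotted line.

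Inflammatory genes outside the interferon lists were also higher in part. Of 49 chemokine and cytokine genes 30 passed the filter, 13 rose and 0 fell, with a median of 0.80. Ccl8, a chemokine that attracts monocytes and T cells, was at 20.3 and 18.1 in control and at 151 and 218 at 24 h, 9.59-fold higher (3.17 ± 0.24, adjusted p = 0.000463). Ccl8 is short, with 511 bases of exon. Cxcl12, which binds the receptor CXCR4, was at 2.37 and 2.89 against 19.2 and 24.4 (2.64 ± 0.15, adjusted p = 0.00016). The interferon-induced chemokine gene Cxcl9, a ligand of CXCR3, was at 2.001 and 2.90 against 10.3 and 13.1 (1.88 ± 0.18). Ccl5 rose by 1.63 ± 0.21. Cxcl10 and Cxcl13 were not called at 1.47 and 3.35 on the log2 scale (adjusted p = 0.0945 and 0.0525), and Cxcl13 was at 6.48 and 78.9 in the 24 h libraries. The number of members higher was 5 without control replicate 1, 8 without 24 h replicate 1 and 6 without 24 h replicate 2.

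NF-kB, a factor of inflammation, induces its own inhibitors and adhesion genes. Of 21 listed genes 18 passed the filter, 7 rose and 0 fell, with a median of 0.57. Vcam1, an adhesion molecule for leukocytes, was at 1.58 and 1.94 in control and at 6.39 and 13.6 at 24 h (1.91 ± 0.29, adjusted p = 0.00675). The inhibitor gene Nfkbia was at 22.5 and 25.1 against 34.0 and 42.7 (0.66 ± 0.13, adjusted p = 0.0182, but 0.0789 without control replicate 1 and 0.0892 without 24 h replicate 2), and the subunit gene Nfkb2 at 8.94 and 8.64 against 10.4 and 10.1 (adjusted p = 0.24). Without control replicate 1, control replicate 2 and 24 h replicate 2 in turn, 1, 3 and 2 members were higher.

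Complement and acute phase genes were higher in part as well. Of 22 complement genes 18 passed the filter, 10 rose and 0 fell, with a median of 0.99, and the numbers higher were 5 without control replicate 1 and 6 without 24 h replicate 2. The 3 chains of C1q, the sensor of the classical pathway, rose together: C1qc was at 43.1 and 37.8 in control and at 124 and 103 at 24 h, with a log2 fold change of 1.46 ± 0.14. C1qb rose by 1.18 ± 0.15 and C1qa by 0.95 ± 0.12. Of 36 acute phase and innate defence genes 19 passed the filter and 7 rose (4 without control replicate 1, 11 without 24 h replicate 1). Lcn2, an iron-binding defence protein, was at 59.1 and 59.4 against 90.7 and 97.0 (0.65 ± 0.09, adjusted p = 0.00472). Cp, the copper carrier ceruloplasmin, and the metallothionein gene Mt1 rose by 1.08 ± 0.11 and 0.89 ± 0.10, but Mt1 was not called under quantile normalization (0.0650).

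Macrophage markers were higher while fibroblast and endothelial markers were not called. In tissue RNA, more cells of a type and more RNA per cell cannot be told apart. All 25 listed macrophage and monocyte genes passed the filter, 14 rose and 0 fell, and the summed level of the list was 540 and 564 in control and 1215 and 1457 at 24 h. Tyrobp, a signalling adaptor of myeloid cells, was at 22.6 and 27.0 against 85.9 and 80.6 (1.71 ± 0.13, adjusted p = 0.000463). Fcer1g, the signalling chain of antibody receptors, was at 8.03 and 20.6 against 94.3 and 90.4 (2.74 ± 0.43, adjusted p = 0.00719). Cd68, a lysosomal protein of macrophages, was at 11.02 and 10.4 against 23.5 and 31.9 (1.28 ± 0.20, adjusted p = 0.00675). Csf1r, the receptor that macrophages need to survive, Mrc1 and Ccr2 had log2 fold changes of 0.22, 0.17 and 0.05, none of which passed. The list thus held both genes that rose more than 2-fold and defining receptors with values near those of control.

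Of 19 T and NK cell markers 13 passed the filter, 5 rose and 0 fell (2 without control replicate 1, 3 without control replicate 2, 1 without 24 h replicate 2), and the summed level was 29.3 and 28.8 in control and 48.9 and 65.45 at 24 h. Nkg7, a protein of cytotoxic granules, was at 5.20 and 3.99 in control and at 11.4 and 10.98 at 24 h (1.13 ± 0.15, adjusted p = 0.00418). Of 11 neutrophil genes 2 passed the filter and 1 was called higher (Csf3r, adjusted p = 0.0444, but 0.0848 to 0.1995 when any single control or 24 h library was left out and 0.0628 with quantile normalization), and the summed level of the list was 1.58 and 3.84 in control and 6.41 and 15.9 at 24 h, with Camp and Ngp at 0 in all 4 libraries. All 13 fibroblast genes and 12 of 16 endothelial genes passed the filter and none of them was called, with medians of -0.01 (0.22 without scaling) and 0.09. Pecam1, an adhesion protein of endothelium, was at 5.18 and 7.48 against 3.87 and 6.29, and the collagen gene Col1a1 at 11.2 and 15.3 against 13.6 and 13.7.

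**Figure D3:**
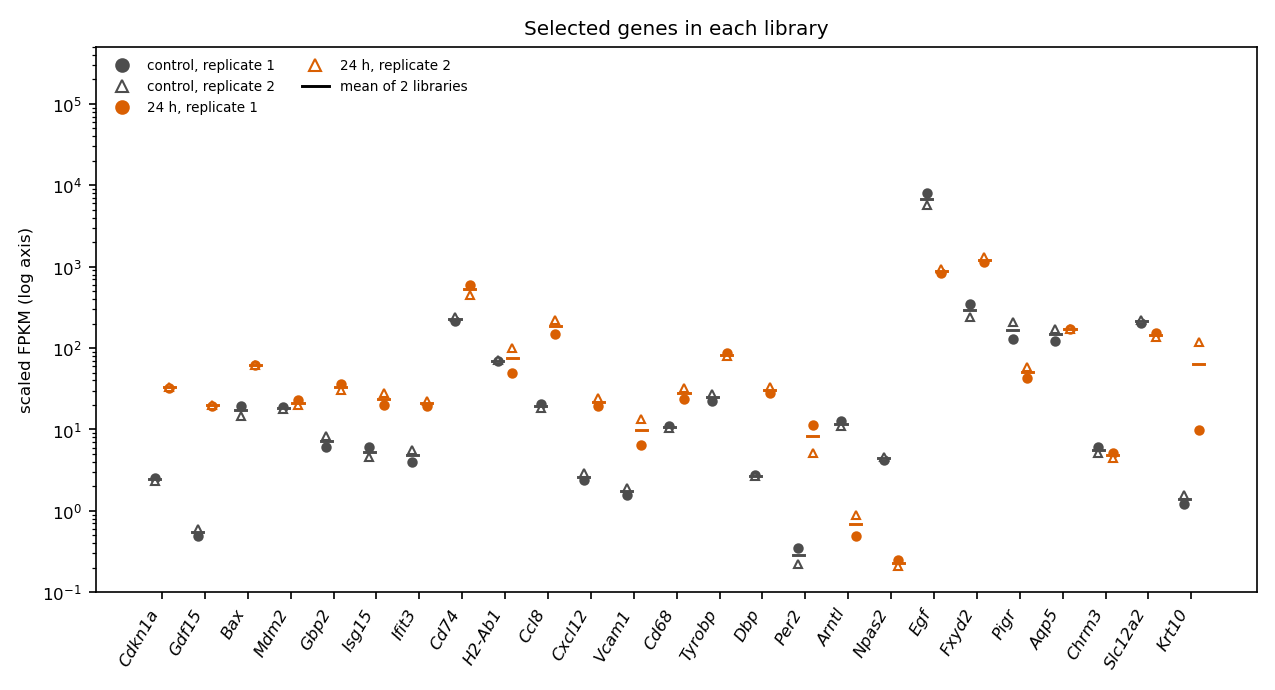
Scaled FPKM (log axis) of 25 genes in the 2 control libraries (grey) and the 2 libraries at 24 h (orange), circles for replicate 1 and open triangles for replicate 2, with the mean of each group as a bar. Cdkn1a stands at 2.56 and 2.33 in control and at 32.3 and 33.5 at 24 h, and Krt10 differs widely between the 24 h libraries.

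Clock genes moved in opposite directions. Of 21 listed genes 20 passed the filter, 10 rose and 2 fell. The 2 that fell belong to the activating arm: Arntl, which encodes BMAL1, was at 12.6 and 10.995 in control and at 0.488 and 0.897 at 24 h, a mean 94.1% below control (-2.93 ± 0.17, adjusted p = 0.000149). In the 6 h libraries Arntl was at 0.447 and 0.476. Npas2, a partner of BMAL1, was at 4.24 and 4.59 against 0.247 and 0.212 (-2.14 ± 0.15, adjusted p = 0.000373). Clock, the usual partner, was not called (-0.31 ± 0.13, adjusted p = 0.153). Genes of the repressing arm rose, among them Per2 from 0.347 and 0.222 to 11.4 and 5.16 (2.77 ± 0.35, adjusted p = 0.00341) and Per3 from 1.14 and 1.20 to 14.96 and 9.66 (2.59 ± 0.26).

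Output factors of the clock rose as well. Dbp, which binds D-box elements, was at 2.73 and 2.65 in control and at 28.3 and 33.1 at 24 h (3.10 ± 0.18, adjusted p = 0.000149), and its relatives Tef and Hlf rose by 2.48 ± 0.14 and 1.34 ± 0.14. Nr1d2, which encodes the repressor REV-ERB beta, rose by 1.22 ± 0.11, whereas the related Nr1d1 was not called (0.43 ± 0.18). Ciart, a clock repressor, did not pass the filter: it was at 0.0631 and 0 in control and at 5.98 and 5.48 at 24 h. All 20 compared clock genes share under 10% of their sequence with other genes. The sources used here do not give the hour of day at which glands were taken, and time of day and irradiation cannot be told apart.

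Immediate early genes, which respond to stimuli within minutes, were high in a single control library. Fos was at 51.5 and 1.20 in control and at 1.399 and 1.94 at 24 h, and Jun at 62.0 and 20.4 against 17.3 and 19.3. Of 26 listed genes 21 passed the filter, 0 rose and 1 fell (Myc, which encodes a transcription factor of growth, from 6.42 and 7.26 to 3.98 and 4.47, adjusted p = 0.0239, but 0.0511 to 0.132 when any single control or 24 h library was left out). Without control replicate 2, which left the library with the high values alone in its group, 10 members were called lower, and without either 24 h library none was.

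Chaperones of the endoplasmic reticulum were lower in part. Of 32 genes of the unfolded protein and integrated stress responses 31 passed the filter, 2 rose and 9 fell, and the median was -0.28. The number called lower dropped to 3 when control replicate 1 or either 24 h library was left out, and to 3 without scaling. Dnajb9, a co-chaperone of the reticulum, was at 64.3 and 53.3 in control and at 33.6 and 28.3 at 24 h (-0.90 ± 0.13, adjusted p = 0.00541). Eif2ak3, which encodes the stress sensor kinase PERK, was at 28.2 and 26.4 against 14.4 and 17.3 (-0.76 ± 0.12, adjusted p = 0.00673). Hspa5, the main chaperone BiP, was not called (-0.29 ± 0.12, adjusted p = 0.154). The 2 that rose were Sesn2, also a p53 target, and Psat1, an enzyme of serine synthesis, which was at 2.86 and 3.27 against 18.5 and 13.3 (2.04 ± 0.25, adjusted p = 0.00294). The stress factor genes Atf4 and Ddit3 were not called (0.17 and 0.38).

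All 21 heat shock genes passed the filter and 4 rose (2 without control replicate 1 or without either 24 h library), of which Hspe1, a mitochondrial chaperonin, was at 40.4 and 43.9 in control and at 64.8 and 68.6 at 24 h (0.65 ± 0.10). Of 35 antioxidant and NRF2 target genes 32 passed the filter, 5 rose and 1 fell, and 2 rose without either 24 h library. Over all compared genes 10.1% were higher and 6.87% lower. Gpx4, which reduces lipid peroxides, was at 107 and 109 against 215 and 189 (0.89 ± 0.11, adjusted p = 0.00293), and 39% of its 31-base runs occur in other genes. Hmox1, heme oxygenase, was at 4.30 and 4.35 against 10.1 and 29.5 (1.78 ± 0.41, adjusted p = 0.0286, but 0.0958 without control replicate 1 and 0.0811 without control replicate 2). Nqo1, another NRF2 target, was not called (-0.42).

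The tubule growth factor gene Egf was lower. Egf, epidermal growth factor, was at 7957 and 5748 in control and at 826 and 947 at 24 h, 87.1% lower on average (-2.93 ± 0.20, adjusted p = 0.000287). The groups did not overlap, which held in the same direction for 30.7% of all 11424 genes. Egf shares 0.486% of its 31-base runs with other genes, and in the 6 h libraries it was at 6165 and 5354. Egf is annotated at chromosome 3, from 129677565 to 129755316 on the - strand of GRCm38, and 6330410L21Rik, which overlaps 4.43% of its exon bases on the other strand, was at 713 and 483 against 46.9 and 55.5. Of 19 listed tubule genes other than kallikreins 13 passed the filter, 3 fell and 1 rose: Fxyd2, a regulator of the sodium pump, was at 347 and 243 against 1126 and 1312 (2.06 ± 0.27, adjusted p = 0.00368). Another that fell was Crisp3, a cysteine-rich secreted protein (-1.07 ± 0.21, adjusted p = 0.0174, but 0.0911 without control replicate 1, 0.0724 without 24 h replicate 1 and 0.0832 without 24 h replicate 2, and 0.331 with quantile normalization).

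Kallikrein genes, which encode proteases stored in the same tubules, were lower with an exception. Of 19 listed genes 13 passed the filter, and 10 fell, 0 rose and 3 were not called. Klk1b27 was at 3006 and 2817 in control and at 659 and 501 at 24 h (-2.34 ± 0.22, adjusted p = 0.00117), and Klk1b8 at 6299 and 4339 against 1305 and 1453 (-1.92 ± 0.20). Klk1b22 was at 16730 and 11837 against 6624 and 5834 (-1.18 ± 0.22, adjusted p = 0.0137), but did not pass without control replicate 1, 24 h replicate 1 or 24 h replicate 2 (0.0623, 0.0531 and 0.0693) or with quantile normalization (0.395), under which 4 members were called lower. Klk1, the tissue kallikrein, was at 5724 and 4706 against 13649 and 7949, which did not pass (1.005 ± 0.29, adjusted p = 0.0587).

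Klk1b26 did the reverse outside the filter: it was at 0.202 and 0.212 in control and at 19434 and 21564 at 24 h, the highest level of the family at that time. Klk1b26 was also at 0 and 0.0992 in the 6 h libraries, whose values have the form of the control values. All 13 compared kallikrein genes share at least 10% of their 31-base runs with other genes (median 40.1%), and 10 of them are shorter than 1000 bases of exon. The 14 Klk1 and Klk1b genes together summed to 116656 and 85654 in control and to 80328 and 72268 at 24 h, which is 24.6% lower, against 44.8% lower when Klk1b26 was left out. With Klk1b26 the mean ± SD of the sum was 101155.3 ± 21921.6 in control and 76297.9 ± 5699.7 at 24 h (n = 2 each).

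**Figure D4:**
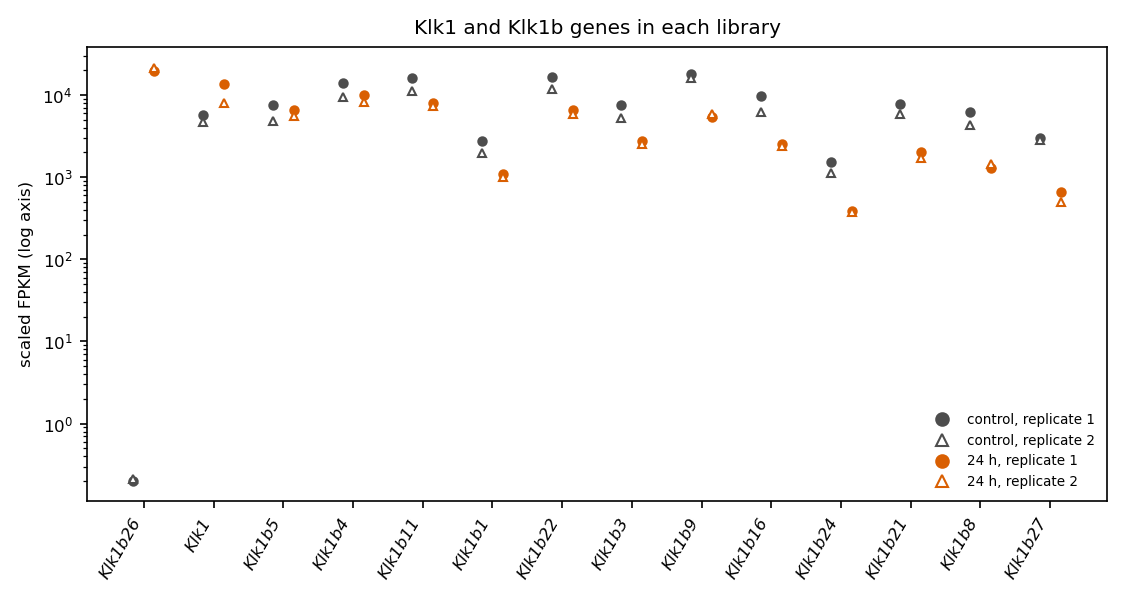
Scaled FPKM (log axis) of the 14 Klk1 and Klk1b genes in each control (grey) and 24 h (orange) library, circles for replicate 1 and open triangles for replicate 2, ordered by the ratio of 24 h to control. Klk1b26 rises from 0.202 and 0.212 to 19434 and 21564 while Klk1b27, at the right, falls from 3006 and 2817 to 659 and 501.

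Of 34 listed genes of acinar products 16 passed the filter, 2 rose and 1 fell, and 0 rose without control replicate 1 or 24 h replicate 1. By comparison, 10.1% of all compared genes were higher and 6.87% lower. Pigr, which carries immunoglobulin A into saliva, was at 130 and 208 in control and at 42.5 and 59.1 at 24 h (-1.69 ± 0.24, adjusted p = 0.00496). The secretoglobin gene Scgb2b26 was at 18915 and 18040 against 79847 and 39804 (1.61 ± 0.33, adjusted p = 0.0204). Its adjusted p was 0.0779 without control replicate 1, 0.0603 without control replicate 2, 0.0585 without 24 h replicate 1 and 0.118 with quantile normalization. Lpo, the salivary peroxidase, was at 237 and 238 against 231 and 223, and the carbonic anhydrase gene Car6 at 28249 and 26185 against 27052 and 25413. Amy1, an amylase, was at 19.96 and 3228 in control and at 1464 and 15757 at 24 h, and its libraries overlapped.

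Of 34 listed genes of the machinery of water and ion secretion 30 passed the filter, 2 rose and 1 fell, with a median of 0.10, and at most 1 rose when any single control or 24 h library was left out. The shares over all compared genes were 10.1% higher and 6.87% lower. Aqp5, the apical water channel of acini, was at 124 and 170 in control and at 171 and 172 at 24 h (0.24 ± 0.15, adjusted p = 0.314). Chrm3, the muscarinic receptor that starts secretion, was at 6.14 and 5.09 against 5.20 and 4.41 (-0.19 ± 0.17, adjusted p = 0.485), and Ano1, the apical chloride channel, at 32.3 and 36.8 against 25.4 and 27.2 (adjusted p = 0.0655). Slc12a2, the sodium-potassium-chloride importer NKCC1, was the member that fell, from 203 and 223 to 152 and 135 (-0.56 ± 0.13, adjusted p = 0.0311). It did not pass without scaling (adjusted p = 0.122) or when any single control or 24 h library was left out (0.0675 to 0.145). Without scaling 11 members were called higher and 0 lower.

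Ducts and junctions held single genes with marked changes. Ascl3, a transcription factor of ionocyte-like duct cells, was at 22.3 and 16.5 in control and at 61.3 and 66.6 at 24 h (1.68 ± 0.16, adjusted p = 0.00111). Atp6v1c2, a subunit of the proton pump, was at 19.2 and 15.8 against 6.81 and 5.23 (-1.40 ± 0.15, adjusted p = 0.0017). They were among 23 compared genes of ductal ion transport, of 30 listed, with 3 higher (1 without 24 h replicate 1) and 1 lower (3 without control replicate 2). Cldn10, a claudin that forms ion pores, was at 77.1 and 74.4 against 169 and 171 (1.16 ± 0.13, adjusted p = 0.0021). Of 23 claudin and tight junction genes 16 passed the filter, 2 rose and 3 fell, against 4 and 0 without scaling. In this list 0 fell when control replicate 1 or either 24 h library was left out. Over all compared genes 10.1% were higher and 6.87% lower. Krt18, a keratin of simple epithelium, was at 438 and 378 against 183 and 228 (-0.99 ± 0.14, adjusted p = 0.00561), and its partner Krt8 at 157 and 126 against 106 and 107 (adjusted p = 0.0708).

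Many ribosomal protein genes and nuclear genes of mitochondrial respiration were higher. Of 77 ribosomal protein genes 73 passed the filter, 54 rose and 0 fell, with a median of 0.66, and their summed level was 27453 and 27869 in control and 47918 and 48153 at 24 h. Rpl38, of the large subunit, was at 313 and 310 against 1633 and 1701 (2.42 ± 0.10, adjusted p = 5.21e-05), while Rplp0, of the same subunit, was not called (0.13). Of the 73 genes, 64 share at least 10% of their 31-base runs with other genes, and 7 of the 9 long members that share less rose. With quantile normalization 14 members were called higher. In the 6 h libraries, whose values have the form of the control values, the sum was 27965 and 29119.

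Of 74 genes of the respiratory complexes 73 passed the filter, 41 rose and 5 fell, and 22 and 7 did so with quantile normalization. None was lower when a control or 24 h library was left out in turn. Ndufv3, of complex I, was at 31.9 and 28.6 in control and at 106 and 116 at 24 h (1.84 ± 0.11, adjusted p = 0.000177), and Ndufa7, of the same complex, rose by 1.69 ± 0.13. Sdha, of complex II, was at 83.4 and 82.0 against 63.1 and 64.5 (-0.37 ± 0.09, adjusted p = 0.0336, but 0.0786 to 0.144 when any single control or 24 h library was left out). Of the 43 long members that share little sequence 18 rose and 4 fell, with a median of 0.29 against 0.54 for all 73.

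The ends of the fold change distribution held many genes that share sequence or exons. The highest called value was that of Hnrnpa1, an RNA-binding protein of splicing, which was at 0.603 and 0.339 in control and at 48.5 and 61.5 at 24 h (5.25 ± 0.16, adjusted p = 2.04e-05), and 29% of its 31-base runs occur in other genes. Mup5, a major urinary protein, was at 303 and 606 against 9611 and 5784 (4.12 ± 0.42). It has 925 bases of exon and shares 37% of its runs. Neat1, the noncoding RNA that builds paraspeckles, was at 70.6 and 63.8 against 573 and 684 (3.20 ± 0.20, adjusted p = 0.000207) and shares 2% of its runs. Mt4, Krt10, Krtdap and Dmkn, genes of stratified epithelium, had log2 fold changes of 4.14, 3.92, 3.79 and 3.47. Krt10 and Krtdap are themselves members of the 10 epidermal keratinocyte genes above, and the only 2 of them that passed the filter. Mt4 and Krt10 did not pass without control replicate 1 (adjusted p = 0.0915 and 0.113) or control replicate 2 (0.0530 and 0.0882). Cox16, Glrx3 and H2-T10, with 3.58, 3.45 and 3.19, share 55%, 18% and 51% of their runs.

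Among the genes with the lowest values, several lie across other genes. Plet1os was at 323 and 283 in control and at 0.355 and 0.386 at 24 h (-7.79 ± 0.10, adjusted p = 2.42e-07). It runs antisense to Plet1, which was at 439 and 387 against 318 and 273 and was called lower (adjusted p = 0.0379), but not without control replicate 1, 24 h replicate 1 or 24 h replicate 2 (0.143, 0.0589 and 0.177). Sycp3, a meiotic chromosome protein, was at 21.2 and 27.7 against 0.359 and 0.516, and 52.2% of its exon bases lie in Chpt1 on the other strand, which was at 61.0 and 85.9 against 153 and 141. Phospho1, Kiss1 and Cntd1 fell by 3.93, 3.77 and 2.39 on the log2 scale, and 89.6%, 100% and 70.2% of their exon bases lie in a single other gene. That gene is on the same strand for Phospho1 (Zfp652) and Kiss1 (Gm28040), and on the other strand for Cntd1 (Becn1). Abi3, on the other strand, also overlaps 84.2% of the exon bases of Phospho1. No source used here says whether the counting used the strand. Map3k15, Lgi4, Far2 and Tomm6os had log2 fold changes of -3.91, -3.14, -2.93 and -2.49, with 14%, 45%, 13% and 51% of exon bases overlapped. Sult1e1, an estrogen sulfotransferase with no overlap, was at 64.7 and 25.01 against 4.78 and 7.39 (-2.57 ± 0.50, adjusted p = 0.0162, but 0.0545 without control replicate 1 and 0.0728 without 24 h replicate 1).

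Shares of calls moved with gene length and shared sequence. Of 282 genes with under 1000 bases of exon 34.4% were higher and 13.8% lower, against 7.63% and 5.54% of the 4653 genes of 5000 bases or more. Of 195 genes that share at least 50% of their 31-base runs 24.6% were higher and 4.10% lower. Of 205 genes with at least 50% of exon bases overlapped 14.6% were higher and 15.6% lower. In the 9044 genes outside these classes (at least 1000 bases, under 10% of runs shared, under 20% overlapped), a choice made after the values were seen, 737 were higher and 538 lower, or 8.15% and 5.95%. Of the genes called at least 2-fold, 56.7% of those higher and 48.9% of those lower were in this class, against 79.2% of all 11424. The highest log2 fold changes called in the class were those of Krt10, Gdf15, Dmkn, Cdkn1a, Neat1 and Dbp, followed by Naca, a ribosome-associated chaperone (2.94 ± 0.09, from 38.6 and 40.2 to 315 and 302), and among the falls were the membrane protein genes Tmem88 (-2.37 ± 0.18) and Tmem206 (-2.10 ± 0.18).

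**Figure D5:**
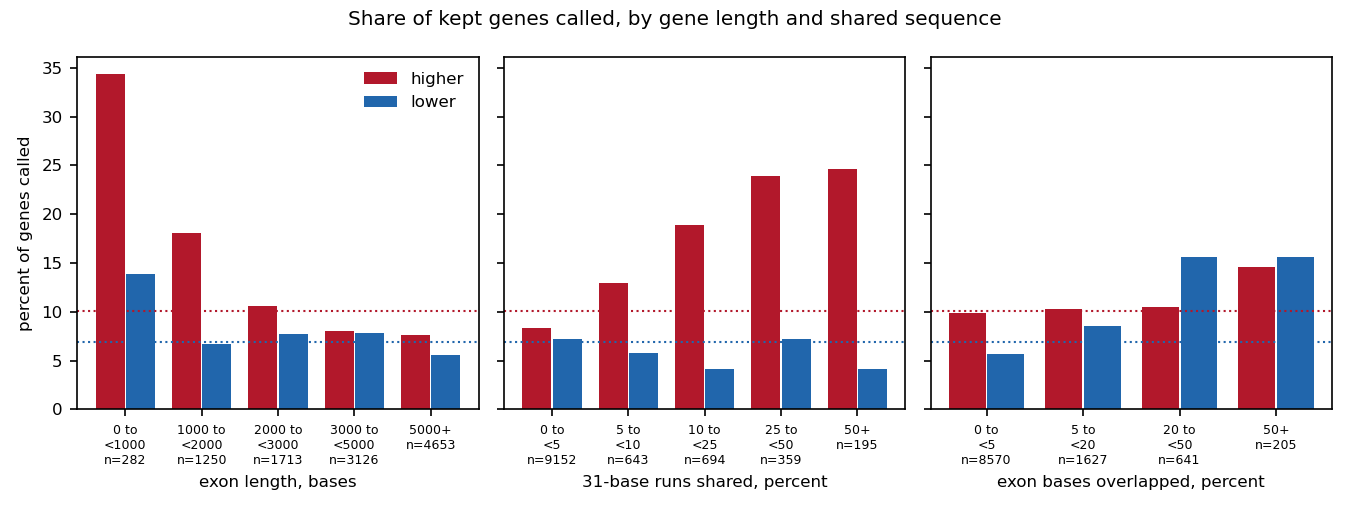
Percent of compared genes called higher (red) and lower (blue) by exon length, by the percent of 31-base runs found in other genes and by the percent of exon bases overlapped by other genes, with the number of genes under each pair of bars. Dotted lines mark the shares over all 11424 genes, 10.1% and 6.87%, and the class under 1000 bases reaches 34.4% higher.

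Genes that could not be compared differed between groups as well. Of 12970 genes outside the filter 12612 had a mean under 1 FPKM and 358 had a library under 0.2. In 104 genes both control libraries were under 0.2 FPKM and both 24 h libraries at 1 or more, 71 of them protein coding. In 155 genes it was the reverse, 42 of them microRNA genes, 36 snoRNA genes, 31 protein coding and 22 antisense genes. No fold change is given for these 259 genes.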

How the data were processed

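RNA sequencing was deposited as a table of gene FPKM for 6 libraries. The submitters' processing notes name TopHat2 2.1.0, Cufflinks 2.2.1 and the mm10 build for the FPKM the authors deposited, without saying which columns these cover. Of 24421 table entries 27 named by a number were left out. Genes were kept at 0.2 FPKM or more in each control and 24 h library and a mean of at least 1, columns were scaled by median-of-ratios factors, and log2(scaled FPKM + 1) was fitted with limma 3.58.1 in R 4.3.3 (a mean per group, empirical Bayes with trend, 3 residual degrees of freedom). P-values were two-sided and adjusted by Benjamini-Hochberg over 11424 genes and a threshold of 0.05. The pseudocount shrinks fold changes of low genes. Positions, exon lengths and shared 31-base runs came from GENCODE M21 (GRCm38), matched by symbol for 11024 genes (96.5%); promoters came from RefSeq.

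Members and the 55 gene lists were chosen with earlier results of these data known; list sizes count members present in the table. Genes were named as the 12 called genes with the highest and the 12 with the lowest log2 fold change (groups not overlapping, mean of at least 5 in the higher group, no unnamed or short RNA models), the 3 members of each list with the smallest p where at least 2 were called, and a fixed set of 27 genes; other names were chosen after their values were seen. There were 18 planned and 2 added alternatives. The fit was tested on simulated data. Some items, among them mitochondrially encoded genes, are not reported here.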

Additional observations from a re-analysis of the deposited data

Results flagged for a closer look

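The following 6 genes, all outside the comparison because both control libraries were under 0.2 FPKM, were well above that level in both 24 h libraries. The lower 24 h library stood at 21401.8 FPKM as deposited for the kallikrein gene Klk1b26, at 2860.27 for Rps27rt, a copy of a ribosomal protein gene, and at 150.872 for the gene model Gm6793. It stood at 140.184 for Atp6v0c, a subunit of the vacuolar proton pump, at 101.227 for Oaz1, an inhibitor of polyamine synthesis, and at 67.8166 for Ndufs5, a subunit of complex I. Of their 31-base runs, 28.3%, 92.7%, 81.6%, 11.9%, 24.0% and 26.5% occur in other genes, in the same order. All 6 were also under 0.2 FPKM in both 6 h libraries, whose values have the form of the control values. The part of the quantification route in these values was not tested.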

How the results depend on the processing

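Counts of 1152 genes higher and 785 lower became 2506 and 384 with values as deposited, 737 higher in long genes that share little sequence, and 607 and 417 when control replicate 1 was dropped together with 24 h replicate 2. Leaving out each library in turn gave 565 to 922 higher and 290 to 589 lower. Quantile normalization, pseudocounts of 0.1 and 5, other filters, the 4 libraries alone, other moderation and scaling within exon length deciles (this one and the restriction to long genes were chosen after seeing the data) gave counts of calls within 1.5 times of these. With the replicate number as a block the counts were 1219 and 821; the labels do not say that a number marks a shared animal or day. Deviations of replicates 1 and 2 correlated across genes at 0.363 between control and 24 h, 0.386 between control and 6 h and 0.164 between 6 h and 24 h; with 2 numbers a group this does not settle a pairing. None of 137 called genes among those named by rule changed direction under the alternatives run. Medians of some lists near 0 did change sign. With values as deposited, DNA damage and repair went from -0.10 to 0.07, replication from -0.03 to 0.13 and claudins from -0.07 to 0.17. Under the same setting, matrix went from -0.01 to 0.21 and fibroblast from -0.01 to 0.22. The insulin-like growth factor axis went from -0.04 to 0.19 and G2/M from -0.13 to 0.01 there. Lists of glucocorticoid response genes, basal and myoepithelial markers and dendritic cell markers also changed sign with values as deposited. Antioxidant genes went from 0.05 to -0.05 with scaling within length deciles. Genes at 2-fold or more (390 and 178) were 203 and 73 with a pseudocount of 5, 512 and 247 with 0.1, 647 and 129 with values as deposited, 475 and 303 without the minimum per library, 434 and 328 without a filter, 313 and 117 at 1 FPKM in each library and 221 and 88 in long genes that share little sequence. Of the 137 genes, 30 did not pass without control replicate 1, 17 without control replicate 2, 24 without 24 h replicate 1 and 25 without 24 h replicate 2. The precision is limited by 2 libraries a group, and at 24 h by unknown depth.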

Other observations

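Of 25 cholesterol synthesis genes 22 passed the filter and 1 fell: Sc5d, a sterol desaturase, was at 62.6 and 53.1 in control and at 12.5 and 15.2 at 24 h (log2 fold change -1.99 ± 0.13, limma adjusted p = 0.000265). Of 18 genes of fatty acid synthesis and storage 17 passed, 1 rose and 2 fell, and 7 fell without control replicate 1. The shares over all compared genes were 10.1% higher and 6.87% lower. Scd1 and Fasn, enzymes of fatty acid synthesis, were at 35.0 and 273 and at 5.54 and 44.4 in control, and at 52.2 and 36.7 and at 8.08 and 6.47 at 24 h. Control replicate 2, which held the high values, was also the control library with the higher adipocyte markers.

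Of 14 genes of the insulin-like growth factor axis 12 passed the filter, 3 rose and 2 fell, and 1 rose and 1 fell when control replicate 1 or either 24 h library was left out. Igfbp7, a binding protein of vessels and stroma, was at 32.0 and 35.6 in control and at 57.4 and 64.6 at 24 h (0.83 ± 0.13, adjusted p = 0.00713), and Igfbp6 at 7.52 and 8.63 against 2.50 and 3.48 (-1.19 ± 0.19, adjusted p = 0.0073). Of 37 matrix genes 36 passed, 2 rose and 3 fell, and 1 fell without either 24 h library. The shares over all compared genes were 10.1% higher and 6.87% lower. Mmp2, a gelatinase, was at 7.44 and 9.26 against 20.1 and 17.9 (1.10 ± 0.14), and Thbs1, which activates TGF beta, at 18.2 and 18.4 against 9.86 and 8.30 (-0.94 ± 0.13).

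Of 31 constitutive proteasome genes 7 rose and 0 fell (3 rose without 24 h replicate 2). Psmb5, Psmb3 and Psma6 rose by 0.89 ± 0.11, 0.83 ± 0.11 and 0.81 ± 0.12, and 72% of the 31-base runs of Psmb5 occur in other genes. Among 12 genes often used as references, Gapdh was at 444 and 398 against 329 and 374 and Actb at 313 and 233 against 224 and 314, and neither passed. Ppia rose by 0.95 ± 0.12 (adjusted p = 0.00291), but not with quantile normalization (0.77), and Sdha, described with the respiratory genes, fell.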
